A study of Danio rerio with 6 samples.

Results

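Genes of plasma proteins that liver and yolk secrete were counted in green cells, labelled olfactory sensory neurons, that were sorted from heads of zebrafish larvae, with and without the drug gallein. Members were chosen by gene symbol, with earlier results of these data known. A gene belonged if its symbol matched a name of an apolipoprotein, vitellogenin, clotting factor, complement component, plasma carrier or plasma protease inhibitor. The pattern matched 88 of the 32469 genes in the count files. Of these, 13 matched by their letters only: 7 loci named F2R after the thrombin receptor, the complement receptor C3AR1, the mitochondrial proteins APOO and apool, APOBEC2 of the editing enzyme family, and the open reading frames C3H16orf89 and C3H17orf75. The other 75 are called plasma protein genes here. They comprise 13 genes of apolipoproteins and their lipid loading, 8 vitellogenin genes, 16 clotting genes, 13 complement genes and 25 genes of carriers and protease inhibitors.

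All samples came from larvae of 1 transgenic line, OMP-Gal4;UAS-GCaMP1.6, in which a green fluorescent calcium sensor is driven from the promoter of OMP, which mature olfactory neurons express. Embryos received 100 µM gallein, an inhibitor of G protein beta-gamma signalling, or the solvent DMSO (control), starting between 16 and 20 hours post fertilization, and medium with drug or solvent was renewed every 24 hours. At 5 days heads were dissociated and cells sorted for green fluorescence. The labels name 3 biological replicates for either treatment. Without a statement of separate clutches, p-values measure the spread between these samples.

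Most plasma proteins are made in hepatocytes and released into the blood. Apolipoproteins carry lipids between yolk, gut, liver and other tissues, and in the larva the layer around the yolk also assembles lipoprotein particles. Clotting factors and complement components circulate mostly as inactive precursors that are cut when needed, and serpins and macroglobulins hold such proteases in check. Vitellogenins are yolk precursors made by the liver of egg-laying females.

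Depth per library ranged from 30822664 to 40295728 counts assigned to genes. Levels are CPM, counts per 1000000 counts assigned to genes, after TMM scaling, which sets the bulk of genes level between libraries. CPM is not divided by gene length, so values compare libraries within a gene and not genes with each other. OMP, the marker behind the sort, measured 13.4, 6.96 and 7.80 CPM across control replicates 1 to 3, against 4.79, 0.192 and 4.99 CPM across the gallein replicates in the same order. Gallein replicate 2 thus held the least OMP, and all gallein libraries were below the controls. In a bulk sample fewer cells of a type and less RNA per cell cannot be told apart.

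Transcripts of plasma proteins were present in all 6 libraries, and most of them were at lower mean levels in gallein. Of the 75 genes, 73 had at least 1 count and 54 had enough counts for the test. The log2 fold change of gallein against control was negative in 45 of these 54 and positive in 9. Their median was -0.94, beside 0.07 for all 18271 genes tested. By edgeR's quasi-likelihood test 0 of the 54 were called higher and 0 lower at an adjusted p of 0.05, and 0% of all genes tested were called. The smallest Benjamini-Hochberg adjusted p among them was 0.756, which was also the smallest over all genes. An unadjusted p under 0.05 was reached by 6 of the 54 (11.1%), against 6.50% of all genes tested. The DESeq2 Wald test gave no adjusted p for 1 of the 54, a2ml. Of the others it called 1 lower, APOB, and none higher. It called 0.226% lower and 0.313% higher of the 17227 genes to which it gave an adjusted p. No difference described below is therefore a call of the main test.

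No gallein sample reached the lowest control in 10 of the 54 tested genes (18.5%), against 5.22% of all genes tested. In 0 of them did all gallein samples lie above, against 3.81% of all genes. The 10 were APOB, FGB, PLG, f2, kng1, c3a.2, c3b.1, CP, GC and TTR. Genes that were high in controls could enter the test through the controls alone, so these counts describe the tested genes and support nothing further. All control samples reached the filter's cutoff of 0.274 CPM in 48 of the 54, all gallein samples in 25, and at least 1 gallein sample in each.

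**Figure D1:**
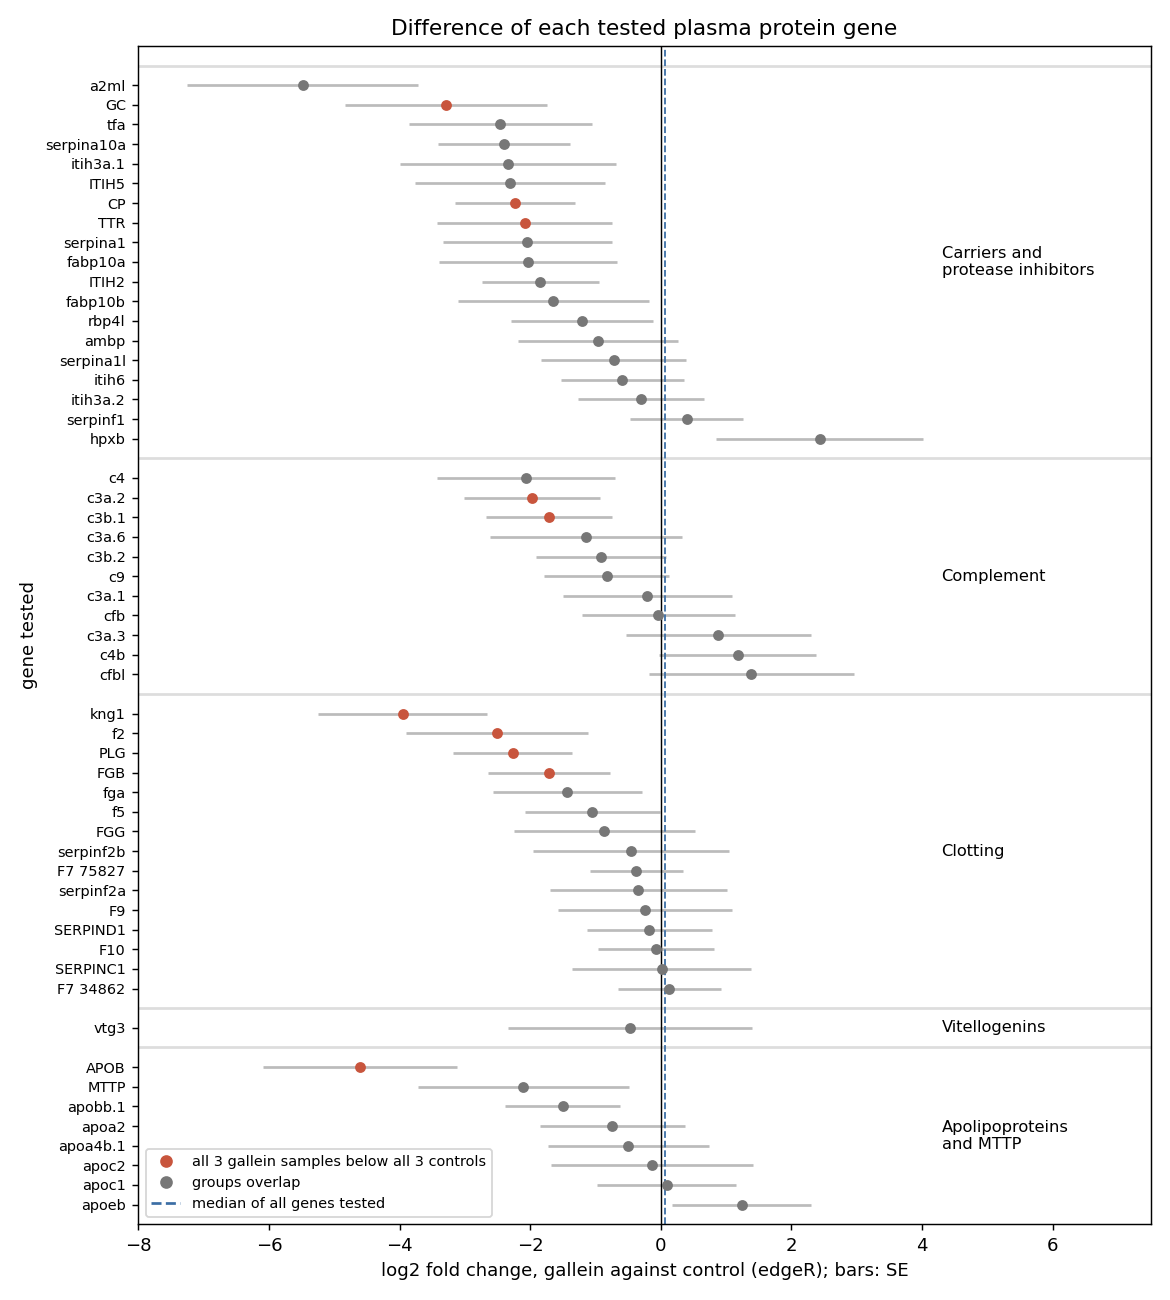
Log2 fold change of gallein against control (horizontal axis, edgeR, bars show the SE) for each of the 54 tested plasma protein genes, grouped by role. Most points lie left of 0, the 10 genes whose groups do not overlap are coloured, and no gene passed the adjusted threshold.

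The libraries were far from uniform. Control replicate 1 held the highest level of 26 of the 54 tested genes (48.1%), where it held the highest level of 14.3% of all genes tested. Gallein replicate 2 held the lowest level of 37 of the 54 (68.5%), against 29.7% of all genes. In gallein replicate 2, 41 of the 54 lay below the lowest control and 26 below 10% of it, which was so for 38.5% and 8.42% of all genes tested. Gallein replicate 3 had 30 of the 54 (55.6%) below the lowest control, against 27.3% of all genes. Gallein replicate 1 had 19 (35.2%), against 29.4% of all genes, and 10 (18.5%) above the highest control, against 26.7% of all genes. Lower plasma protein transcripts were thus shared by gallein replicates 2 and 3, extreme in replicate 2, and only slightly more frequent than among all genes in replicate 1.

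Without gallein replicate 2 the median was -1.05 over 59 tested plasma protein genes, 43 of them negative. Of all genes tested, 51.6% were negative in that fit, with a median of -0.04. The genes that entered the test only then, apoa1a, apoa4b.3, ahsg1, ahsg2 and serpina10b, were all negative. Of these, ahsg1 and ahsg2 held at most 1 count in either remaining gallein library. The median was thus negative without that library too, over a partly different set of genes. Gallein replicates 1 and 3 both lay below all controls in 14 of the 54 genes (25.9%), against 9.86% of all genes tested. Without control replicate 1 the median was -0.58 over 56 genes, 37 of them negative. Without gallein replicate 1 it was -1.96 over 59 genes.

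**Figure D2:**
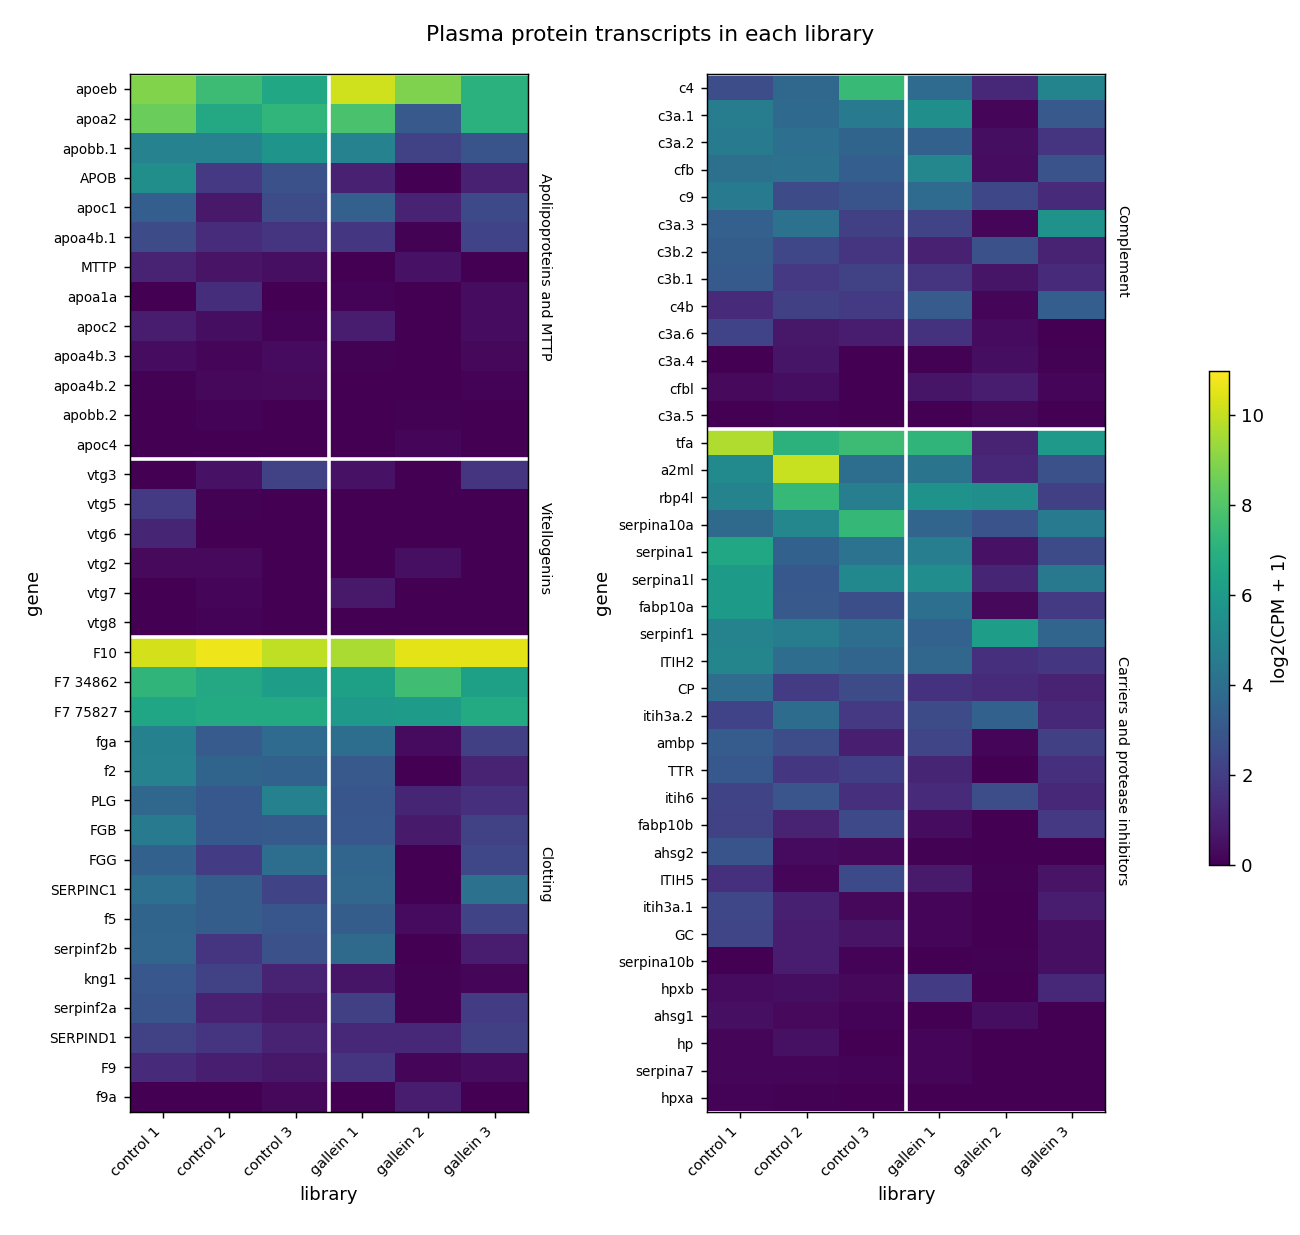
Level as log2(CPM + 1) (colour) of the 73 plasma protein genes with any count (rows, by role) in each library (columns, controls left and gallein right of the white line). Gallein replicate 2 is dark for most genes but not for F10, both F7 loci, apoeb, rbp4l and serpinf1, and control replicate 1 is bright; colours compare libraries within a row.

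The lowest log2 fold change among genes of apolipoproteins and their lipid loading was that of APOB, a gene of ApoB, the structural protein of very-low-density lipoproteins. APOB (ENSDARG00000042780) measured 42.7, 2.58 and 5.66 CPM across control replicates 1 to 3, against 1.03, 0 and 1.03 CPM across the gallein replicates, the order in which values are listed below. Every gallein sample was under every control, and control replicate 1 stood far above the other two. The means were 17.0 ± 22.3 and 0.685 ± 0.594 CPM (SD, n = 3). Its log2 fold change was -4.61 ± 1.49 (SE, edgeR adjusted p = 0.756), and the adjusted p of DESeq2 was 0.0375. Without control replicate 1 the log2 fold change was -2.57.

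The ApoB gene apobb.1 (ENSDARG00000022767) was at 28.1, 28.1 and 51.0 CPM in controls and at 28.3, 3.32 and 6.24 CPM in gallein. Gallein replicate 1 was at the control level and the other gallein samples were below it, so the groups overlapped (log2 fold change -1.50 ± 0.88, edgeR adjusted p = 0.787). MTTP (ENSDARG00000008637), whose product loads lipid onto ApoB, held 42, 30 and 16 counts in controls and 0, 9 and 1 in gallein. These counts are low and the groups overlapped on the CPM scale (-2.10 ± 1.61, edgeR adjusted p = 0.835).

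Genes of the small exchangeable apolipoproteins did not share one direction. The HDL protein gene apoa2 (ENSDARG00000015866) was at 358, 99.0 and 150 CPM in controls and at 226, 7.46 and 129 CPM in gallein. Gallein replicates 1 and 3 lay within the control range and replicate 2 far below it. Its log2 fold change was -0.74 ± 1.11 (edgeR adjusted p = 0.940), and -0.03 without control replicate 1. For apoc2, which encodes an activator of lipoprotein lipase, the value was -0.13, for apoc1 0.09 and for apoa4b.1 -0.50, all with overlapping groups. The genes apoa1a, apoa4b.2, apoa4b.3, apobb.2 and apoc4 were too low for the test, and control replicate 2 held 100 of the 113 counts of apoa1a.

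In contrast, apoeb (ENSDARG00000040295) had a higher mean in gallein. It encodes apolipoprotein E, a ligand of lipoprotein receptors that macrophages and glia also make. Its levels were 478, 186 and 94.7 CPM in controls and 1186, 473 and 128 CPM in gallein, with the top value in gallein replicate 1 and overlapping groups. The log2 fold change was 1.24 ± 1.06 (edgeR adjusted p = 0.859), 0.25 without gallein replicate 1, and -0.76 when spike-in totals set the scale. There were 0.749, 0.533 and 1.59 apoa2 counts per apoeb count in controls and 0.190, 0.0158 and 1.01 in gallein. Genes of macrophages and microglia, 22 matched to the list, summed to 11.4, 10.2 and 5.25 CPM in controls and to 46.0, 15.6 and 20.3 CPM in gallein. That sum was also highest in gallein replicate 1, where 1 MPEG1 locus (ENSDARG00000043093) gave 24.9 CPM of it. In a given library 3 to 12 of these genes had no read. Radial glia genes, 7 matched, summed to 206, 100 and 99.0 CPM in controls and to 57.4, 401 and 82.2 CPM in gallein. The radial glia sum was thus lowest in gallein replicate 1. The FABP7 locus ENSDARG00000007697 gave 168 CPM of the 206 in control replicate 1 and 315 CPM of the 401 in gallein replicate 2. The part of either cell type in the apoeb values was not tested.

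Over the 8 tested genes of this role, 6 were negative and 2 positive, and 0 were called. Their median was -0.62, and without control replicate 1 the median of the role was -0.031 over 9 tested genes.

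Carriers and protease inhibitors had the lowest median of the roles, -2.03 over 19 tested genes, 17 of them negative and 0 called. Leaving out control replicate 1 gave a median of -1.22 over 20 genes, and leaving out gallein replicate 2 one of -1.49 over 22. Of the metal carriers, tfa (ENSDARG00000016771) encodes transferrin, which carries iron. It was at 816, 134 and 185 CPM in controls and at 145, 1.15 and 61.1 CPM in gallein. Gallein replicate 2 held 24 tfa counts, where control replicate 1 held 32431, and gallein replicate 1 lay just above the lowest control. Its log2 fold change was -2.46 ± 1.40 (edgeR adjusted p = 0.784), and -1.20 without control replicate 1.

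CP (ENSDARG00000010312) encodes ceruloplasmin, the copper-carrying ferroxidase. It was at 14.2, 2.87 and 4.72 CPM in controls and at 2.05, 1.49 and 1.08 CPM in gallein. The 3 gallein values lay close together, and all were below the controls, with a log2 fold change of -2.23 ± 0.92 (edgeR adjusted p = 0.756, unadjusted p = 0.0341). With each library left out in turn its value ran from -2.62 to -1.28, negative each time.

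Carriers of hormones and vitamins had lower mean levels too. TTR (ENSDARG00000037191), the thyroid hormone carrier transthyretin, was at 7.24, 2.34 and 3.13 CPM in controls and at 1.18, 0 and 1.79 CPM in gallein, without overlap. GC (ENSDARG00000089310), the vitamin D-binding protein, held 155, 45 and 22 counts in controls against 4, 0 and 13 in gallein. Their log2 fold changes were -2.09 ± 1.34 and -3.29 ± 1.55 (edgeR adjusted p = 0.803 and 0.776). The retinol carrier homologue rbp4l was at 166 CPM in control replicate 2 and between 3.25 and 48.6 CPM in the other 5 libraries, and gallein replicate 2 was within the control range.

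The 2 largest differences among inhibitors each rested on 1 control library. For a2ml (ENSDARG00000056314), an alpha-2-macroglobulin-like protease inhibitor, levels were 36.4, 1073 and 14.7 CPM in controls and 18.0, 1.35 and 5.69 CPM in gallein. Control replicate 2 alone held 62778 a2ml counts. The log2 fold change of -5.49 ± 1.77 (edgeR adjusted p = 0.756) was -1.62 without that library. For serpina10a (ENSDARG00000005924), whose human counterpart inhibits activated factor X with protein Z, control replicate 3 was at 161 CPM and the other controls were at 12.9 and 33.5 CPM. Gallein samples were at 10.98, 6.06 and 22.3 CPM, and the log2 fold change of -2.40 ± 1.01 (edgeR adjusted p = 0.756) was -0.82 without control replicate 3.

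A further pair was picked after its values were seen, because both are widely used hepatocyte markers. Levels of fabp10a, the liver fatty acid-binding protein that stays inside the cell, were 62.3, 7.33 and 5.25 CPM in controls and 15.4, 0.192 and 2.68 CPM in gallein. Those of serpina1, the elastase inhibitor alpha-1 antitrypsin, were 95.9, 9.76 and 17.3 CPM and 24.7, 0.433 and 4.66 CPM. In both genes control replicate 1 was highest, gallein replicate 1 lay above at least 1 control, and gallein replicate 2 was near 0. The log2 fold changes were -2.03 ± 1.36 and -2.04 ± 1.29 (edgeR adjusted p = 0.809 and 0.799). They were -0.023 and -0.43 without control replicate 1, and -4.10 and -4.00 without gallein replicate 1.

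Only hpxb and serpinf1 of the tested carriers and inhibitors had positive values. The hemopexin gene hpxb, which binds free heme, held 10, 20 and 7 counts in controls and 72, 0 and 51 in gallein (2.43 ± 1.58, edgeR adjusted p = 0.803). The value of serpinf1, which encodes pigment epithelium-derived factor, came from gallein replicate 2, at 68.6 CPM against 9.96 and 11.1 CPM in the other gallein samples and 14.5 to 29.4 CPM in controls. Without gallein replicate 2 it was -1.11. Of 6 genes of this role not tested, ahsg2, a fetuin gene, held 245, 15 and 8 counts in controls and 1, 0 and 0 in gallein.

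**Figure D3:**
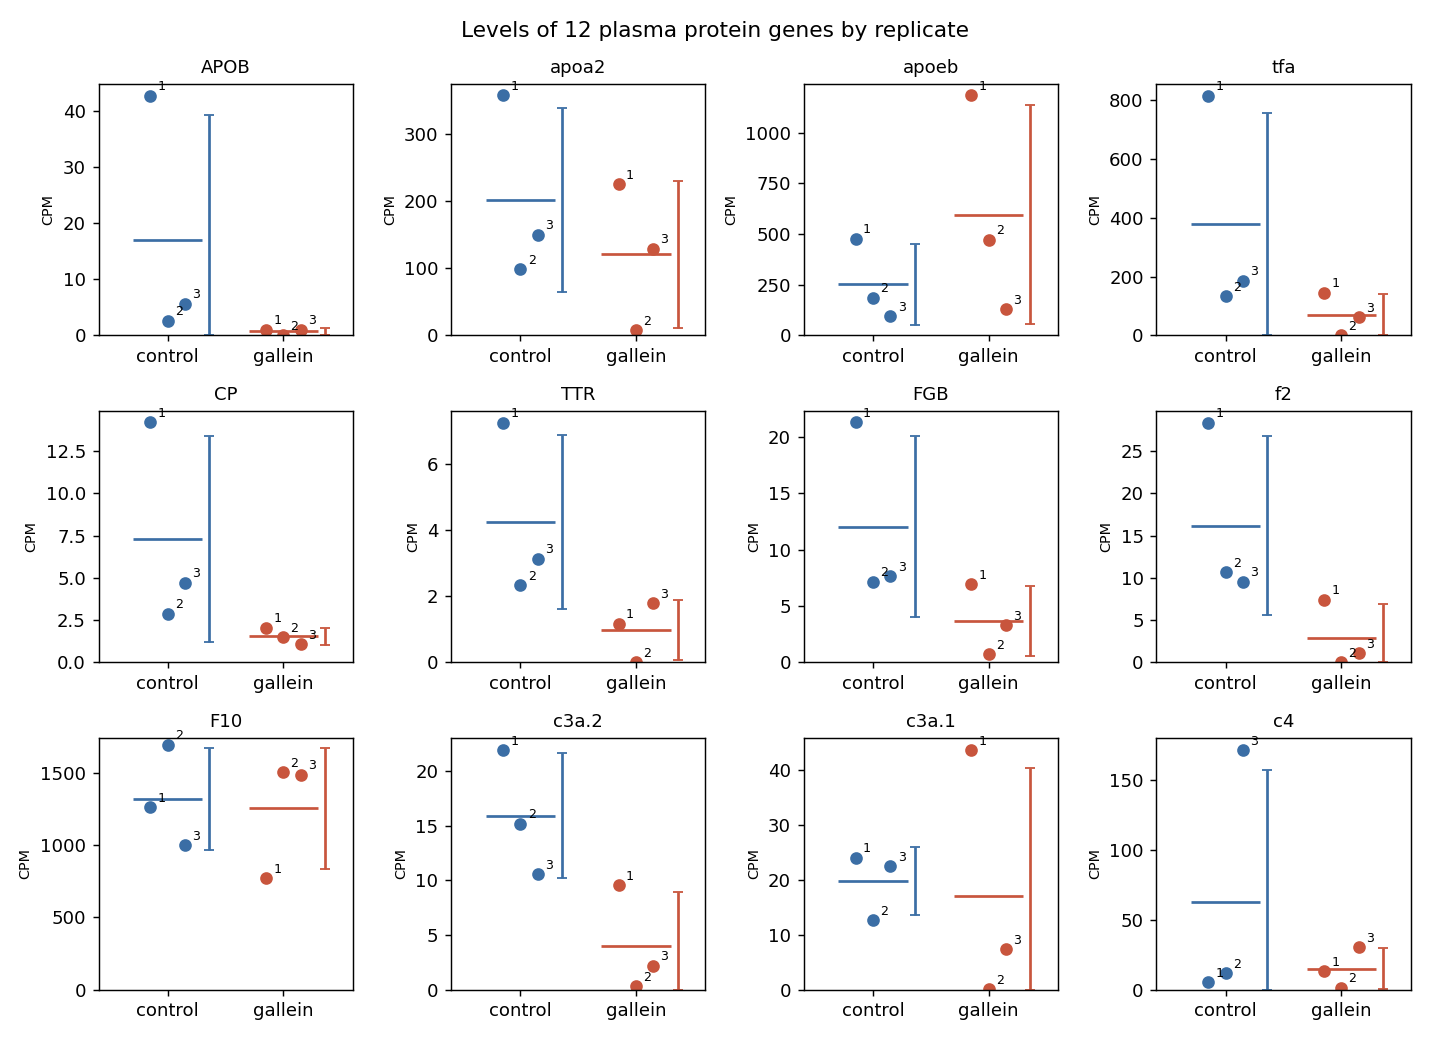
TMM-scaled CPM (vertical axis, linear, own scale in each panel) of 12 plasma protein genes named by the rule, with 1 point per sample labelled by replicate number, the group mean as a horizontal line and 1 SD as a bar cut at 0. Control replicate 1 is the top point for APOB, apoa2, tfa, CP, TTR, FGB, f2 and c3a.2, and F10 shows no such pattern.

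The clotting genes divided into those that were near 0 in gallein replicate 2 and those that were not. Fibrinogen, the clot protein, is built of 3 chains. FGB (ENSDARG00000008969), the beta chain, was at 21.3, 7.16 and 7.62 CPM in controls and at 6.92, 0.722 and 3.31 CPM in gallein, without overlap (-1.72 ± 0.94, edgeR adjusted p = 0.783). The alpha and gamma chain genes fga and FGG had values of -1.44 and -0.86 with overlapping groups. There were 1.31, 1.11 and 1.74 fga counts per FGB count in controls and 2.12, 0.333 and 0.984 in gallein. Gallein replicate 2 held only 5 fga, 15 FGB and 0 FGG counts, so its ratio rests on few reads.

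Prothrombin, plasminogen and kininogen genes had gallein samples that all lay below the controls. The prothrombin gene f2 (ENSDARG00000036041) held 1127, 625 and 415 counts in controls and 196, 0 and 40 in gallein. In CPM these were 28.4, 10.7 and 9.55 against 7.45, 0 and 1.08, with a log2 fold change of -2.51 ± 1.40 (edgeR adjusted p = 0.784). PLG (ENSDARG00000023111), the precursor of the clot-dissolving protease plasmin, was at 12.2, 7.25 and 27.3 CPM in controls and at 6.73, 1.20 and 1.79 CPM in gallein. Gallein replicate 1 lay just under the lowest control, and the log2 fold change was -2.27 ± 0.91 (edgeR adjusted p = 0.756).

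The kininogen gene kng1 (ENSDARG00000022372), source of bradykinin, was at 6.84, 3.35 and 1.08 CPM in controls and at 0.532, 0.0481 and 0.136 CPM in gallein. Its log2 fold change was -3.95 ± 1.29 (edgeR adjusted p = 0.756, unadjusted p = 0.0116). It ran from -5.25 to -3.16 with each library left out, and the DESeq2 adjusted p was 0.0718.

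The protease gene F10 (ENSDARG00000088581) and the loci named F7 were not near 0 in gallein replicate 2. F10 was at 1260, 1695 and 1000 CPM in controls and at 771, 1504 and 1488 CPM in gallein, with gallein replicate 2 inside the control range (-0.07 ± 0.88, edgeR adjusted p = 0.996). Of all counts of plasma protein genes, F10 took 32.1%, 43.7% and 43.4% in controls and 26.4%, 62.4% and 66.3% in gallein. The F7 locus ENSDARG00000034862 was at 144, 99.9 and 69.8 CPM in controls and at 74.2, 194 and 75.1 CPM in gallein, highest in gallein replicate 2. The other F7 locus, ENSDARG00000075827, was at 89.2, 103 and 104 CPM in controls and at 58.3, 64.2 and 106 CPM in gallein. Gallein replicates 1 and 2 thus lay below all controls at that locus, and replicate 3 above them. In the order given, the F7 loci had log2 fold changes of 0.13 ± 0.79 and -0.37 ± 0.71 (edgeR adjusted p = 0.990 and 0.955). These capital symbols are orthologue names, and the loci belong to a family of similar proteases. Reads aligned to more than 1 place were set aside and not assigned to a gene. How many of them came from these loci is not given in the sources used here.

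Log2 fold changes of clotting inhibitor genes were 0.01 for SERPINC1 (antithrombin), -0.18 for SERPIND1 (heparin cofactor II), -0.35 for serpinf2a and -0.45 for serpinf2b, genes of antiplasmin. Each of the 4 changed sign with 1 library or another left out, and serpinf2b ran from -3.82 without gallein replicate 1 to 0.26 without control replicate 1. SERPINC1 had no read in gallein replicate 2, where gallein replicates 1 and 3 were at 11.2 and 16.2 CPM and controls between 3.78 and 15.1 CPM. Of the 15 tested clotting genes, 13 had negative and 2 positive values, and 0 were called. Their median was -0.45. It moved to -0.28 when gallein replicate 2 was left out and to -2.17 when gallein replicate 1 was.

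For the 11 tested complement genes the median was -0.83, with 8 values negative, 3 positive and 0 called. The median was 0.084 without control replicate 1, so its sign rested on that library, and -1.99 without gallein replicate 1. C3 is the protein on which all routes of complement activation meet, and zebrafish carry several copies of its gene. Copy c3a.2 (ENSDARG00000087359) was at 21.9, 15.2 and 10.6 CPM in controls and at 9.58, 0.337 and 2.20 CPM in gallein, without overlap (-1.98 ± 1.04, edgeR adjusted p = 0.779). Copy c3b.1 (ENSDARG00000093068) was at 7.72, 2.58 and 3.34 CPM in controls and at 2.13, 0.529 and 1.49 CPM in gallein, also without overlap (-1.71 ± 0.96, edgeR adjusted p = 0.784).

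Other C3 copies had other patterns across the same libraries. Copy c3a.1 (ENSDARG00000012694) was at 24.0, 12.6 and 22.5 CPM in controls and at 43.7, 0.0962 and 7.37 CPM in gallein, so gallein replicate 1 was the highest library and replicate 2 the lowest (-0.21 ± 1.29, edgeR adjusted p = 0.990). Copy c3a.3 ran from 3.27 to 16.1 CPM in controls, while gallein replicate 3 measured 49.0 CPM and replicate 2 measured 0.0962 CPM. Copy c3b.2 was lower in gallein replicates 1 and 3, at 1.03 and 1.14 CPM, than in any control, and at 5.73 CPM in gallein replicate 2. These copies are similar in sequence, and reads aligned to more than 1 place were set aside and not assigned to a gene. Such reads took 9.5% to 22.3% of counts, most in gallein replicate 2, and their share from these copies is not known.

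The gene c4 (ENSDARG00000015065), of the classical route, was at 5.13, 11.6 and 171 CPM in controls and at 13.2, 1.44 and 30.3 CPM in gallein. Its log2 fold change of -2.06 ± 1.36 (edgeR adjusted p = 0.804) rested on control replicate 3 and was 0.85 without it. Its paralogue c4b ran from 1.53 to 3.20 CPM in controls, and measured 7.87, 0.0962 and 8.67 CPM across the gallein replicates. The gene cfb, of the alternative route, ran from 8.63 to 16.4 CPM in controls, and measured 33.6, 0.289 and 5.94 CPM across the gallein replicates. Of the membrane attack complex, c9 had a value of -0.83 with overlapping groups.

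Vitellogenin transcripts were scarce, so the values of these yolk precursor genes rest on few reads. No read of vtg1 or vtg4 was counted in any library, where a count of 0 allows up to 3 counts per library. Only vtg3 (ENSDARG00000016448) passed the filter, with 0, 27 and 146 counts in controls and 12, 0 and 84 in gallein (-0.47 ± 1.87, edgeR adjusted p = 0.984). Its sign changed without control replicate 3 (1.97) or gallein replicate 2 (0.10). The 104, 2 and 0 counts of vtg5 and the 47, 0 and 0 counts of vtg6 in controls lay almost wholly in control replicate 1, and neither gene had a read in gallein. Against a floor of 3 counts over the gallein group, vtg5 was at least 24.7-fold and vtg6 at least 11.03-fold lower, bounds that cover counting error only. The gene vtg2 held 8, 12 and 0 counts in controls and 0, 8 and 0 in gallein, vtg7 held 6 counts in control replicate 2 and 18 in gallein replicate 1, and vtg8 held 4 in control replicate 2.

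**Figure D4:**
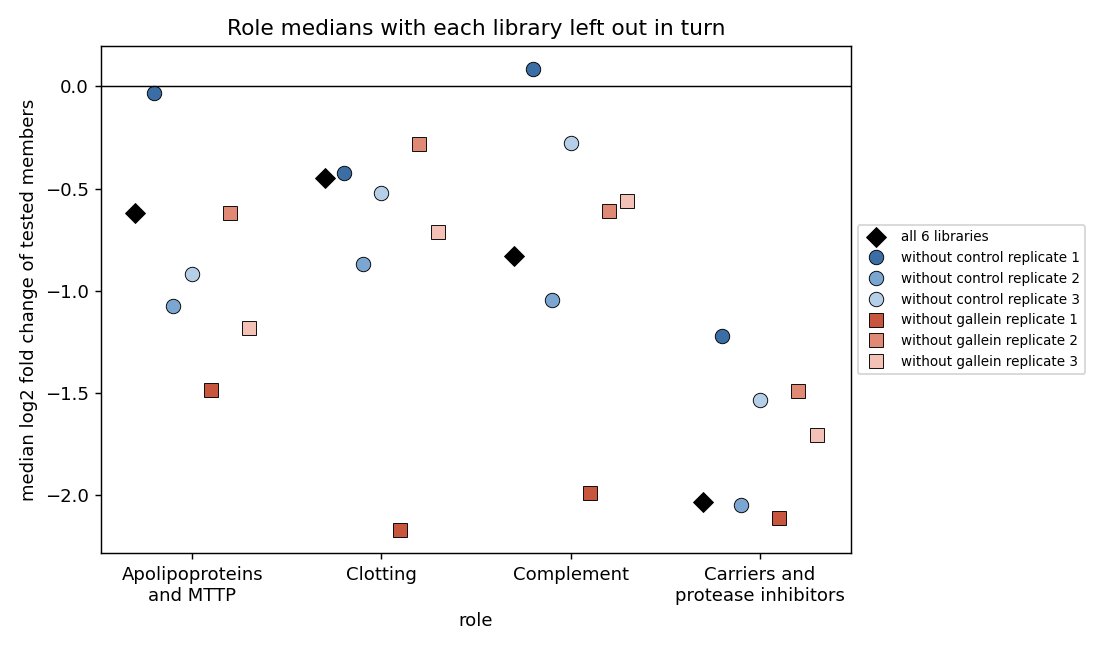
Median edgeR log2 fold change of the tested members of 4 roles (vertical axis) with all 6 libraries (diamonds) and with each library left out in turn (circles for controls, squares for gallein). Carriers and inhibitors stay between -2.11 and -1.22, while the complement median reaches 0.084 without control replicate 1 and apolipoproteins reach -0.031.

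Summed over a role, carriers and inhibitors reached 1233, 1504 and 493 CPM in controls and 343, 141 and 149 CPM in gallein, so the groups did not overlap. The gene a2ml alone gave most of the sum in control replicate 2. Apolipoproteins summed to 922, 320 and 310 CPM in controls and to 1454, 485 and 274 CPM in gallein. In replicate 3 of either group apoa2 was above apoeb, and in the other 4 libraries apoeb was the highest gene of the sum. Complement genes summed to 121, 88.2 and 232 CPM in controls and to 131, 14.4 and 108 CPM in gallein. Clotting genes summed to 1648, 1960 and 1266 CPM in controls and to 991, 1767 and 1710 CPM in gallein, mostly F10. With F10, the F7 loci and apoeb set aside, a choice made after their values were seen, the remaining plasma protein genes summed to 1957, 1791 and 1035 CPM in controls and to 829, 173 and 446 CPM in gallein.

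Of the 13 genes matched by letters only, 7 had enough counts for the test. Among these, the log2 fold change was positive for 6 and negative for 1, the median was 0.30, and 0 were called. C3H17orf75 was steady at 16.9 ± 1.02 CPM over controls, beside 18.3 ± 3.48 CPM over gallein samples (SD, n = 3). Gallein replicate 2 was nonetheless the lowest library in 4 of the 7. The F2R locus ENSDARG00000060012 was at 18.6, 32.2 and 22.4 CPM in controls and at 358, 3.13 and 73.7 CPM in gallein (2.57 ± 1.28, edgeR adjusted p = 0.779).

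Other genes linked to the same proteins were read from lists. Further secreted plasma proteins, 30 genes matched and 25 tested, had 17 negative and 8 positive values with a median of -1.29, and 0 were called. Their median was -1.14 without gallein replicate 2. The fetuin gene fetub was at 423, 42.4 and 259 CPM in controls and at 41.2, 1.59 and 24.2 CPM in gallein, without overlap (-3.43 ± 1.27, edgeR adjusted p = 0.756). In 5 of the 25, fetub among them, no gallein sample reached the controls, against 5.22% of all genes tested. In 0 of the 25 did all lie above, against 3.81%. Both loci named VTN, for the adhesive plasma protein vitronectin, and LIPC, the hepatic lipase, were among the 5. Their log2 fold changes were -4.36 ± 1.54, -2.60 ± 1.34 and -3.89 ± 1.66 (edgeR adjusted p = 0.756, 0.779 and 0.757). Control replicate 3 held 113 LIPC counts and the other controls 19 and 13, against 1, 0 and 6 in gallein. Of the 8 positive values, that of apof was 2.58 ± 1.14 (edgeR adjusted p = 0.761), with gallein replicate 2 highest at 16.9 CPM.

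Enzymes of hepatocytes, 33 genes matched and 28 tested, had 22 negative and 6 positive values with a median of -0.85, and 0 were called. In 2 of the 28 no gallein sample reached the controls, against 5.22% of all genes tested. In 0 did all lie above, against 3.81%. Without gallein replicate 2 the median of these enzymes was -0.48. Their sum was 996, 369 and 1388 CPM in controls and 668, 323 and 292 CPM in gallein. The urate oxidase gene uox gave 995 CPM of it in control replicate 3, and 2 to 7 of the genes had no read in a given library. For 8 tested liver transcription factors the median was 0.26, with 5 positive, 3 negative and 0 called. HNF4A, a nuclear receptor that drives many hepatocyte genes, was at 1.08, 0.547 and 0.299 CPM in controls and 1.67, 0.192 and 0.786 CPM in gallein, with overlap. Transcripts of hepatocyte genes were thus counted in every library, and their part in the values of the plasma protein genes was not tested.

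For 13 tested receptors, lipases and transfer proteins of lipoproteins the median was 0.06, with 6 negative, 7 positive and 0 called. The lipoprotein lipase gene LPL was at 63.7, 26.4 and 37.6 CPM in controls and at 69.7, 68.4 and 72.8 CPM in gallein. All its gallein samples thus lay above the controls (0.72 ± 0.70, edgeR adjusted p = 0.879). That was so in 1 of the 13, against 3.81% of all genes tested. In 1 other, LIPC, all gallein samples lay below the controls, against 5.22%. LIPC and LRPAP1 (-1.44 ± 0.77, edgeR adjusted p = 0.779) had smaller unadjusted p than LPL. Among 9 tested receptors and cell-surface regulators of complement and clotting, 4 values were negative, 5 positive and 0 called, and their median was 0.20. Some of these, the F2R loci and C3AR1, also matched the symbol pattern.

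Among 10 tested markers of mature ciliated olfactory neurons, the sorted type, 9 were negative and the median was -1.32. Without gallein replicate 2 it was -0.94. In gallein replicate 2, 4 of the genes had no read. In 4 of the 10 every gallein sample lay below the controls, against 5.22% of all genes tested, and in 0 did all lie above, against 3.81%. Other marker lists had medians of 1.79 for macrophages and microglia, 1.38 for neutrophils, 0.54 for radial glia and 0.14 for skin. Medians were 0.31 for lens, 0.68 for skeletal muscle, 1.84 for erythroid cells and -0.11 for gut and pancreas. Neutrophils had only 3 tested genes and gut and pancreas 2, and 0 genes of any list were called. Without gallein replicate 2 these medians were, in the same order, 0.92, 1.22, -0.90, -0.030, 0.34, -0.28, -0.0023 and 0.55. Those of radial glia, skin, skeletal muscle, erythroid cells and gut and pancreas thus changed sign. Skin genes summed to 10235, 4515 and 1687 CPM in controls and to 6921, 4401 and 1782 CPM in gallein. The gene krt91 gave 6016 CPM of the sum in control replicate 1. In each group replicate 1 held the highest skin sum, as it did for tfa and fabp10a. Within gallein, however, the skin sum was lowest in replicate 3, and tfa and fabp10a were lowest in replicate 2. The parts of these cell types in the values above were not tested.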

How the data were processed

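RNA was measured by poly(A)-selected sequencing in 6 samples, 3 control and 3 gallein. The authors deposited raw whole-number counts per gene, 2 files for each sample. The submitters' processing notes name TopHat2 2.0.4, HTSeq and build Zv9 of the zebrafish genome. The annotation release, the counting mode and whether strand was used: not given in the sources used here. The 2 files of a sample differed by little more than sampling noise (chi-square per gene 1.37 to 1.76) and were summed as 1 replicate. HTSeq's summary rows took 19.4% to 33.9% of counts; library sizes leave out these and 92 spike-in rows. A symbol table named 20734 of 32469 genes. It held 104 symbols that match the pattern, of which 16 had no row in the count files.

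Counts were tested with edgeR 4.0.16 (R 4.3.3): TMM factors, filterByExpr with a minimum count of 10, a robust quasi-likelihood model of treatment alone, two-sided, Benjamini-Hochberg adjustment over 18271 genes. A fold change's SE is its size over the square root of F. Alternatives used DESeq2 1.42.0, limma 3.58.1 (voom), other scalings and filters, the replicate block, each file alone and each library left out. The fit was tested on simulated data as a check of the code, which does not show its power in these data. The named genes were, in each role, those whose groups did not overlap, the 3 with the smallest p and the 2 with the most counts. All vitellogenins and up to 3 genes a list were added, and a second VTN locus and apof went beyond that number. Other genes given values here were not named by this rule and serve as examples only. Among them are apoc1, rbp4l, serpinf1, SERPINC1, c3a.3, cfb, HNF4A and LPL. Members, roles and lists were chosen with earlier results of these data known. No sequence is shown, since none was used here.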

Additional observations from a re-analysis of the deposited data

How the results depend on the processing

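No gene was called by edgeR under any of its alternatives or by limma-voom, while the DESeq2 Wald test called 93 genes, 1 of them a member. The median of all genes tested was -0.07 with upper-quartile factors, -0.49 with library size only and -1.67 with spike-in totals. The plasma protein median was -1.02, -1.05 and -1.16 relative to it, against -1.01 with TMM factors, and 48, 49 and 53 of 54 values were negative. Spike-in totals gave role medians of -1.91 for apolipoproteins, -2.20 for clotting, -2.61 for complement and -3.46 for carriers and inhibitors. In limma-voom the first 2 were -1.43 and -1.89. With the replicate number as a block they were -1.40 and -1.78, and no gene was called. Whether the numbers pair the samples is not stated in the labels. Deviations of same-numbered samples from their group means correlated at 0.07, -0.10 and 0.17, and those of other pairs at -0.24 to 0.16. Such correlations over 3 samples a group cannot settle whether samples were paired.

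With each library left out the medians ran from -1.48 to -0.031 for apolipoproteins, -2.17 to -0.28 for clotting, -1.99 to 0.084 for complement and -2.11 to -1.22 for carriers and inhibitors. Of 362 values of 22 named genes under 17 alternatives, 347 kept direction and side and 14 changed sign. The remaining 1, APOB in DESeq2, passed the threshold. Many of the 22 were named for a small p or no overlap in these same data. Their kept direction was thus partly fixed in advance and supports nothing further. Members outside the 22, such as SERPINC1, serpinf1 and cfb, also changed sign with a library left out. The sign changes listed next are those of the 22 only. With libraries left out, signs changed for vtg3 (-2.45 to 1.97), F10 (-0.23 to 0.18), F7 ENSDARG00000034862 (-0.48 to 0.46), c4 (-3.10 to 0.85) and c3a.1 (-2.40 to 0.37). Elsewhere they changed for apoeb (-0.76, spike-in totals), vtg3 (0.30, limma-voom) and the F7 locus (-0.026 with upper-quartile factors, -0.53 with library size only, -1.80 with spike-in totals). The causes were not tested. Of the 54 tested plasma protein genes, every gallein sample lay below the controls in 10 (18.5%, against 5.22% of all genes tested). Without gallein replicate 2, an alternative chosen after seeing the data, that was so in 14 (25.9%, against 9.86%).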
